A study of Mus musculus with 8 samples.

Results

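The genes described here are Sva, its relatives Sval1, Sval2, Sval3 and Pip, and 4 other genes of the same region of mouse chromosome 6, Trpv6, Ephb6, Kel and Clec5a. They were taken by symbol, and all 9 have a row among the 26146 of the count table. Sva was chosen by its difference in counts between KO and wild type in these same libraries, so its values are a description with no test. The others were chosen for family and position. RNA was sequenced from LSK cells (Lin-Sca1+Kit+), the sorted bone marrow cells that include haematopoietic stem cells and early progenitors. The wild type group has 4 mice and the Jmjd6 KO group has 4 mice, with 1 library per mouse. In the KO mice a floxed Jmjd6 was deleted in blood lineages by a Cre. The promoter that drives the Cre, the strain, the age and whether the wild type mice carry the Cre or a floxed allele were not given in the sources used here.

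Sva encodes seminal vesicle antigen, a protein secreted into seminal fluid that binds sperm and lowers their motility. The Sval genes encode seminal vesicle antigen-like proteins, and Pip encodes prolactin-induced protein, a small secreted protein of saliva, tears and seminal fluid. These genes are known from secretory epithelia and not as genes of blood stem cells. Kel and Clec5a, by contrast, are known from blood: Kel encodes the Kell blood group peptidase of red cells, and Clec5a a lectin receptor of myeloid cells.

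Sva lies on chromosome 6 from 42038394 to 42042851 (mm10, plus strand) in 4 exon blocks that sum to 651 bases, and it overlaps no other annotated gene. Sval3, Sval1, Sval2 and Pip lie on the same strand at lower coordinates, 65.3, 82.3, 174.0 and 186.3 kb away. The upstream sequences of the Sva and Sval genes are shown because these 4 genes share much of this sequence and differ in their counts. Each runs 250 bases up to the annotated start (RefSeq, GRCm38.p6, plus strand): chr6:42038144-42038393 for Sva, chr6:41951378-41951627 for Sval1, chr6:41860057-41860306 for Sval2 and chr6:41967890-41968139 for Sval3. Capitals mark the longest run that all 4 hold.
Sva: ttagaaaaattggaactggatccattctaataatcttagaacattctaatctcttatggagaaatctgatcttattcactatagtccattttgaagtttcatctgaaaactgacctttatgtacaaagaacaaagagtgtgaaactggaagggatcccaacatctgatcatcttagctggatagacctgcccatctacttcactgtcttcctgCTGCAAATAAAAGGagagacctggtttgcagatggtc
Sval1: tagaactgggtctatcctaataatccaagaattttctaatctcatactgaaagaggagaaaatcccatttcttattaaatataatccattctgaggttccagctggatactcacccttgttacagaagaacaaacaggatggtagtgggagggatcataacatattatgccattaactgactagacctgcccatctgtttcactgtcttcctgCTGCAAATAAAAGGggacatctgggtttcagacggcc
Sval2: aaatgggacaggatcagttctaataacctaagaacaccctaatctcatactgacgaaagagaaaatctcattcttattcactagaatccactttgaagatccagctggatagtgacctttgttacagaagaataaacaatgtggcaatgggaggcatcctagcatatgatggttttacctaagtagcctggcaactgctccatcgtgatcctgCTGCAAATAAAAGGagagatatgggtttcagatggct
Sval3: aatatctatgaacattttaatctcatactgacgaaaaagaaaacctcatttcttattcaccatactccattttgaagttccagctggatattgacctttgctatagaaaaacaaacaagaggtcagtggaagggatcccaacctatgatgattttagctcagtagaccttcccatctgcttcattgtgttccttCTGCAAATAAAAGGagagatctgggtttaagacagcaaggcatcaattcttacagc
The run in capitals, CTGCAAATAAAAGG, is 14 bases long and begins 37 bases before the start of Sva, Sval1 and Sval2 and 56 bases before that of Sval3. Among 32851 upstream windows of the same length, searched on both strands, only the 4 windows of these genes hold it (0.0122%). The run was taken from these 4 windows, so their own matches were fixed by that choice. A run of 14 bases seldom recurs in this many windows whatever its letters, so its absence elsewhere says little. In a local alignment Sva matched Sval1 at 186 of 235 aligned bases (79.1%), Sval2 at 187 of 238 (78.6%) and Sval3 at 138 of 170 (81.2%). Against Pip the best local alignment covered 18 bases, and against Kel and Trpv6 it covered 12 and 9. The Sva window holds no CpG, as do 7.87% of all windows, and the Sval1, Sval2 and Sval3 windows hold 1, 2 and 1. The letters CCAAT, found on either strand in 33.8% of windows, occur in the Sva window and not in the other 3. TATAAA, found in 12.4%, occurs in none of the 4, and AATAAAA, found in 7.76%, occurs in all 4, within the run in capitals. These are matches of letters and say nothing of which factor binds.

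Sva was read in every KO library and in no wild type library. Wild type replicates 1 to 4 had 0, 0, 0 and 0 counts, and KO replicates 1 to 4 had 94, 104, 171 and 112. These are 8.27, 10.7, 13 and 8.68 CPM (counts scaled to library size) in KO, a mean of 10.2 ± 2.19 (SD, n = 4). Every KO library is far above every wild type library, and within KO the highest is 1.58 times the lowest. A count of 0 over the 48734143 counts of the wild type libraries allows up to 3 counts, or 0.0601 CPM, over the group. Against that floor the KO libraries one by one were at least 138-fold to at least 217-fold higher. The floor covers counting error only.

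**Figure D1:**
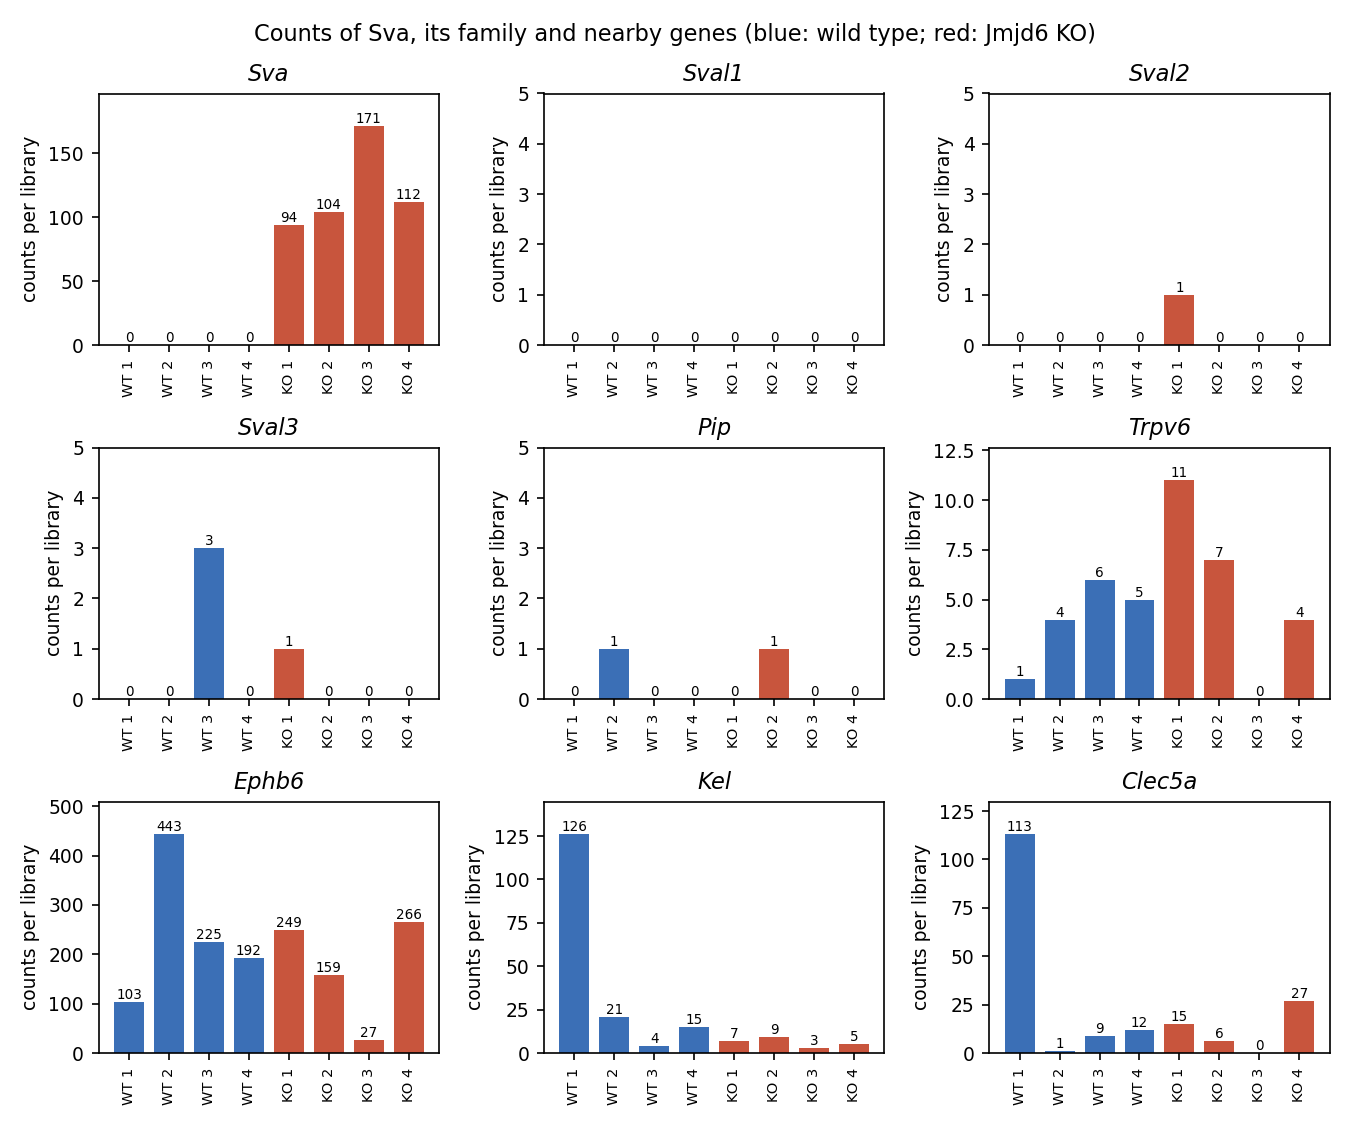
Counts per library (vertical axes, each from 0 and on its own scale) of the 9 genes in wild type (WT, blue) and Jmjd6 KO (KO, red) libraries 1 to 4, 1 bar per library. Sva stands at 94 to 171 in the KO libraries and at 0 in wild type, its 4 relatives stay at 3 counts or fewer everywhere, and Kel and Clec5a peak in wild type replicate 1.

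In CPM, Sva in KO lay below most tested genes, its mean being above 26.6% of them, and per kb of exon it lay above most. Its level of 15.6 ± 3.36 CPM per kb (SD, n = 4) was above that of 67.6% of 13187 tested genes with a known length, whose median in KO was 7.91 CPM per kb. Among the other 8 genes described here Ephb6 had the highest level per kb, at 4.04 ± 2.41 CPM per kb in KO. The ranges of the KO libraries, 12.7 to 20 for Sva and 0.546 to 5.81 for Ephb6, did not overlap. Reads of Jmjd6, the deleted gene, stood at 28.7, 28.1, 30.7 and 27.5 CPM in KO replicates 1 to 4 and at 52.5 to 63.7 CPM in wild type. The 4 KO values lay close together, the highest in KO replicate 3, which also had the most Sva. The counts are per gene and do not show which exons of Jmjd6 were read. A relation of Sva to the level of Jmjd6 was not tested. The coefficient of variation of Sva among KO libraries was 21.5%, against a median of 26.9% for 1478 genes with a KO mean within 1.5-fold of it.

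KO replicate 3 stands apart from the other libraries, with a score of 83.9 on the first principal component (37.8% of the variance) against -28 to 9.4 in the other 7. It and wild type replicate 4 had Xist at 893 and 1550 CPM, against at most 4.93 CPM elsewhere, and 0 counts over 4 Y-linked genes, against 3660 or more elsewhere. Without KO replicate 3 the mean of Sva was 9.21 ± 1.30 CPM (SD, n = 3). The 6 libraries with Y-linked counts, a choice made after seeing the data, show the same split of Sva. That was fixed in advance, since Sva was read in every KO library and in no wild type library. Total counts ran from 9344779 to 15079960 per library, with no split by genotype.

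None of the relatives of Sva was read at a level that could be tested. Sval1 had 0 counts in all 8 libraries, which over 96773653 counts allows up to 3 counts, or 0.0309 CPM. Sval2 had 1 count, in KO replicate 1. Sval3 had 3 counts in wild type replicate 3 and 1 in KO replicate 1, and Pip had 1 in wild type replicate 2 and 1 in KO replicate 2. The 4 together therefore gave 3 counts in KO libraries where Sva gave 481. No difference between genotypes was detectable at this depth for any of them.

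The Sva transcript shares few exact stretches with its relatives. The longest exact run that the Sva transcript shares with Sval1 is 22 bases, and with Sval3, Sval2 and Pip it is 16, 12 and 12 bases. Of 622 stretches of 30 bases in the Sva transcript, 0 occur on either strand in a transcript of another annotated gene. The local alignment of the Sva and Sval1 transcripts covered 166 bases at 72.3% identity and that of Sva and Sval3 164 bases at 71.3%. Read length and counting tool were not given in the sources used here.

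Other genes of seminal vesicle and reproductive tract secretion were either read in both groups or had few counts. Of 25 such genes listed beside Sva, 24 have a row, 4 had 0 counts throughout, and 1, Tgm4, was abundant enough to test. Tgm4, a transglutaminase that clots the mouse copulatory plug, stood at 9.50, 5.72, 8.64 and 5.23 CPM in wild type replicates 1 to 4 and at 11.1, 4.94, 6.10 and 5.03 CPM in KO replicates 1 to 4, which overlap (log2 fold change -0.09, adjusted p = 0.964 by edgeR's quasi-likelihood test with Benjamini-Hochberg adjustment over all genes, as for every adjusted p below). It made up most of the summed level of the list, 6.72 to 10.3 CPM across wild type libraries and 5.65 to 12.5 CPM in KO. The seminal vesicle secretion genes Svs2 and Svs3a had 0 CPM in every library, and Svs5, the highest of the family, had 1, 2, 3 and 0 counts in KO replicates 1 to 4 and 0 in each wild type library. Aqp5, a water channel gene of secretory glands, had 3 to 8 counts across wild type libraries and 2 to 12 in KO, which overlap. Of 11 epithelial markers, 4 were tested and 0 passed in either direction, with a median log2 fold change of 0.04 against 0.00 over all genes, and 1 was lower at an unadjusted p under 0.05, where 3.28% of all genes were. In bulk RNA, more cells with Sva and more Sva per cell cannot be told apart.

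The flanks of Sva were examined next, to see whether nearby genes differed between the groups. Within 1 Mb of Sva on either side 88 other genes have a row, of which 22 had 0 counts throughout and 13 passed the filter on low counts. Of these 13, 0 passed an adjusted p of 0.05 by edgeR, by DESeq2 or by limma voom, where 0.0595% of all 13439 tested genes passed by edgeR. Their median log2 fold change was -0.07, with 5 above 0 and 8 below. At an unadjusted p under 0.05 by edgeR there were 5 of the 13, 3 higher and 2 lower in KO, where 6.06% of all genes had one. Within 2 Mb 20 genes were tested and 0 passed.

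None of the genes next to Sva on either side passed the threshold or was read in KO alone at the level of Sva. The nearest rows are Sval3 on the low side and the bitter taste receptor gene Tas2r139, 98.1 kb away on the high side, which had 10 counts in KO replicate 3 and 0 in the other 7 libraries. No other gene of the 1 Mb flanks with 0 counts in wild type gave more than those 10 in KO, and 0 of the 8 with any were read in all 4 KO libraries. The taste receptor gene Tas2r144 had 0 counts in all 8 libraries. Gstk1, a glutathione transferase gene and the nearest tested gene on the high side, at 203.1 kb, stood at 16.7, 21.3, 16.5 and 20.3 CPM in wild type replicates 1 to 4. In KO replicates 1 to 4 it stood at 19.6, 23.9, 21.7 and 32.4 CPM, overlapping with wild type (log2 fold change 0.38 with an SE of 0.209; edgeR adjusted p = 0.832). Casp2, which encodes a caspase, stood at 266 ± 20.2 CPM across wild type libraries and 266 ± 12.1 CPM in KO (SD, n = 4), a log2 fold change of 0.00 with an SE of 0.126. Zyx, the gene of the adhesion protein zyxin, and Epha1, an Eph receptor gene, gave -0.31 (SE 0.195) and -0.07 (SE 0.252), with adjusted p of 0.832 and 0.960 by edgeR.

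**Figure D2:**
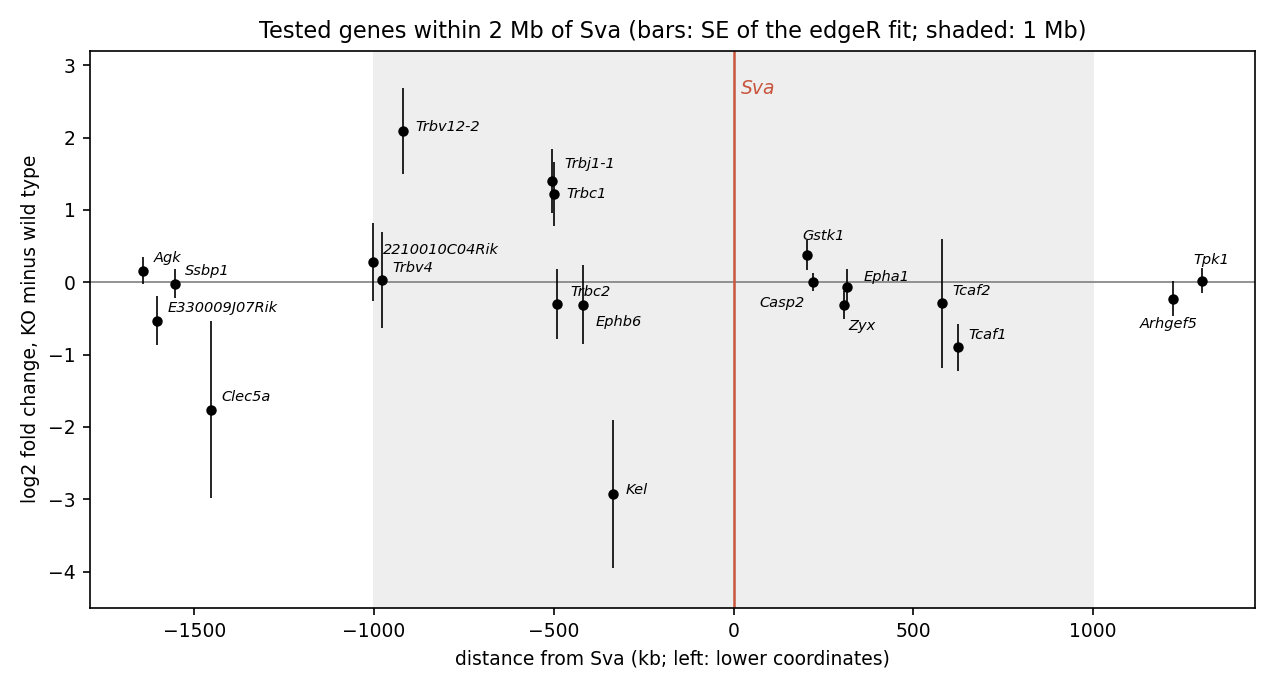
Log2 fold change of KO minus wild type (vertical axis, bars for the SE of the edgeR fit) of the 20 tested genes within 2 Mb of Sva against their distance from it in kb (horizontal axis), with the red line at Sva and grey shading for 1 Mb. Casp2 and Gstk1, the nearest on the right, lie at 0.00 and 0.38, and none of the 20 passed the threshold.

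Trpv6 encodes an epithelial calcium channel and lies 402.0 kb from Sva. Wild type replicates 1 to 4 had 1, 4, 6 and 5 counts of it and KO replicates 1 to 4 had 11, 7, 0 and 4, too few to test, and the groups overlap. Of the 6 genes of the TRPV channel family 2 were tested and 0 passed by edgeR, 0 also at an unadjusted p under 0.05. Over all genes the shares were 0.0595% and 6.06%, so 0 of 2 says little. Trpv2, the abundant member of the family in these cells, stood at 65.7 ± 9.55 CPM across wild type libraries and 71.7 ± 9.95 CPM in KO (SD, n = 4; log2 fold change 0.13, adjusted p = 0.894 by edgeR).

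Ephb6, an Eph receptor that lacks kinase activity, is 417.9 kb from Sva. Of the 4 flanking genes described here it had the highest level per kb in both groups. It stood at 11.4, 29.5, 22.6 and 12.1 CPM in wild type replicates 1 to 4 and at 21.9, 16.3, 2.06 and 20.6 CPM in KO replicates 1 to 4. KO replicate 3 was the low one, and the other 3 KO libraries lay inside the wild type range. The log2 fold change was -0.31 (95% interval -1.51 to 0.88, adjusted p = 0.921 by edgeR), and 0.05 without KO replicate 3, the library with the most Sva. Of 22 Eph receptor and ephrin genes 9 were tested, 2 above and 7 below 0 with a median of -0.30. By edgeR 0 passed in either direction, where 0.0595% of all genes did. At an unadjusted p under 0.05 there were also 0, where 6.06% of all genes had one. Ephb4, with the smallest p, stood at 5.33 ± 2.70 CPM across wild type libraries and 2.86 ± 1.37 CPM in KO (SD, n = 4; log2 fold change -0.90, adjusted p = 0.832 by edgeR).

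Kel, 334.1 kb from Sva on the minus strand, was high in 1 wild type library. It stood at 13.9 CPM in wild type replicate 1 and at 1.40, 0.402 and 0.946 CPM in wild type replicates 2 to 4, against 0.616, 0.925, 0.229 and 0.387 CPM in KO replicates 1 to 4. Apart from wild type replicate 1 the groups overlap. The log2 fold change was -2.93 (95% interval -5.15 to -0.71, unadjusted p = 0.014, adjusted p = 0.746 by edgeR), and -0.80 without wild type replicate 1 (adjusted p = 0.872 by edgeR). The same library had 12 erythroid markers, of which 11 have a row and Kel is not one, at a summed 539 CPM, against 35.7 to 88.8 CPM in wild type replicates 2 to 4 and 38.1 to 66.2 CPM in KO. Car1 and Klf1, which define early red cell precursors, were at 339 and 39.8 CPM in it and at no more than 41.2 and 9.99 CPM in the other 7. The part of erythroid cells in the Kel value was not tested. All 9 tested erythroid markers lay below 0 with a median of -1.12 and 0 passed by edgeR, 4 of them at an unadjusted p under 0.05, where 3.28% of all genes were lower at that p. Without wild type replicate 1 the erythroid median was -0.23, with 3 of 9 above 0. Xk encodes the membrane protein that Kell is bound to, and it stood at 29.7 ± 2.66 CPM across wild type libraries and 25.0 ± 1.56 CPM in KO (SD, n = 4; log2 fold change -0.25, adjusted p = 0.832 by edgeR). Of 8 M13 peptidase and Kell partner genes, Kel among them, 4 were tested and 0 passed. Kel was the 1 at an unadjusted p under 0.05, where 3.28% of all genes were lower at that p. Kel overlaps the annotated transcript Gm37527.

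Clec5a lies 1452.6 kb from Sva, beyond the 1 Mb flanks, and was also high in wild type replicate 1. It stood at 12.5 CPM there and at 0.0665, 0.904 and 0.757 CPM in wild type replicates 2 to 4, against 1.32, 0.617, 0.00 and 2.09 CPM in KO replicates 1 to 4. The log2 fold change was -1.76 (95% interval -4.42 to 0.90, adjusted p = 0.833 by edgeR), and it turned to 0.84 without wild type replicate 1 (adjusted p = 0.912 by edgeR). The 10 granulocyte-monocyte markers summed to 5710 CPM in that library, against 1090 to 1410 CPM in wild type replicates 2 to 4 and 1730 to 2540 CPM in KO, with Mpo at 3290 CPM and Elane at 785 CPM in it. Neutrophil markers summed to 106 CPM in it, against 6.98 to 14.0 CPM in wild type replicates 2 to 4 and 14.6 to 41.9 CPM in KO. Most of the 106 came from S100a8 and S100a9, at 84.9 and 13.1 CPM. Lcn2 and Mmp8 were also above wild type replicates 2 to 4, at 2.54 and 0.883 CPM. Camp, Ngp and Ltf, at 0.994, 2.43 and 0.773 CPM, lay inside the range of those replicates, and Retnlg and Ly6g were at 0 CPM. Of both lists 0 markers passed by edgeR, with 0 granulocyte-monocyte and 2 neutrophil markers higher at an unadjusted p under 0.05, where 2.78% of all genes were. The granulocyte-monocyte median was -0.26, with 2 of 10 above 0, and it turned to 0.68 with 9 of 10 above 0 without wild type replicate 1. The neutrophil median was 0.20, and 1.25 with all 5 tested markers above 0 without that library. The part of myeloid cells in the Clec5a value was not tested. Tyrobp, the adaptor through which the receptor signals, and the kinase gene Syk gave log2 fold changes of 0.32 and 0.01 (adjusted p = 0.832 and 0.994 by edgeR). A list of 11 genes held Clec5a itself, adaptor and signalling genes, and the receptor genes Clec4d, Clec4e, Clec7a, Trem1, Trem2 and Trem3. All 11 were tested and 0 passed by edgeR. At an unadjusted p under 0.05, 2 were higher, Hcst and Clec4d, and 1 was lower, Clec7a, where 2.78% and 3.28% of all genes were. The median of the 11, Clec5a included, was 0.32 with 8 above 0, and 0.88 with 10 above 0 without wild type replicate 1.

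**Figure D3:**
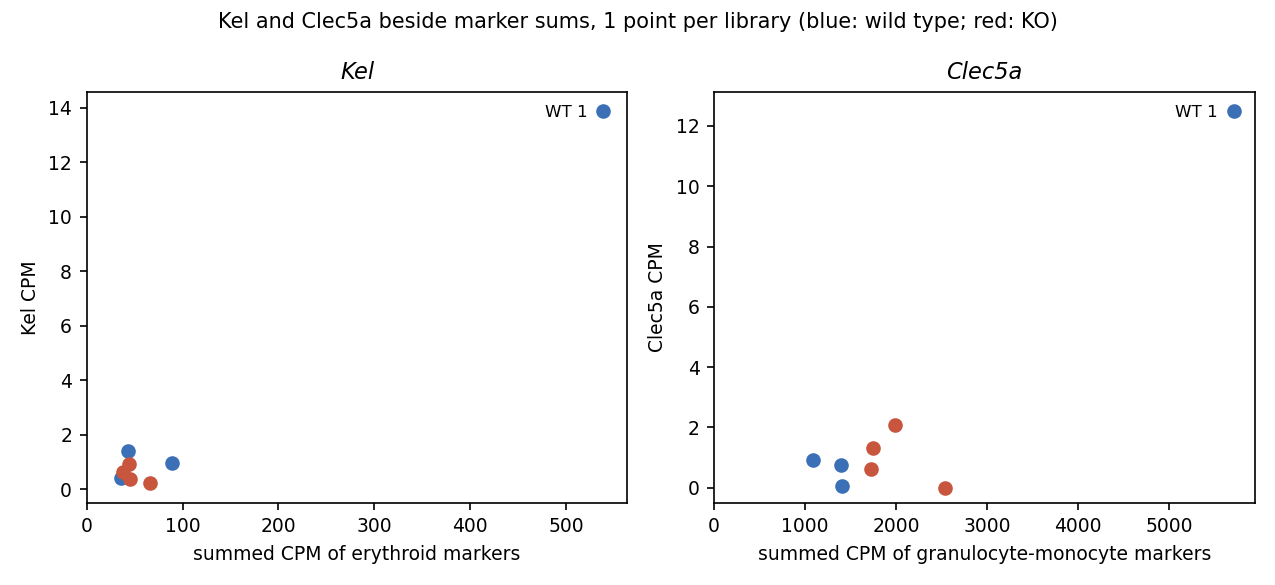
CPM of Kel (left, vertical axis) against the summed CPM of erythroid markers and of Clec5a (right, vertical axis) against that of granulocyte-monocyte markers, 1 point per library (blue wild type, red KO). Wild type replicate 1 (WT 1) lies alone at the upper right in both, at 13.9 CPM of Kel and 12.5 CPM of Clec5a.

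The T cell receptor beta locus fills much of the low-coordinate flank of Sva. Of the 13 genes tested in the 1 Mb flanks, 5 had an unadjusted p under 0.05 by edgeR, where 6.06% of all genes had one. Segments of this locus made up 3 of the 5. The locus was singled out after its values were seen, and its segments are neighbours and not independent of one another. Trbc1, a constant region 498.5 kb from Sva, stood at 4.09, 1.2, 1.61 and 2.14 CPM in wild type replicates 1 to 4 and at 4.22, 4.63, 8.39 and 3.56 CPM in KO replicates 1 to 4 (log2 fold change 1.22 with an SE of 0.444; edgeR adjusted p = 0.772). The joining segment Trbj1-1 stood at 0.466 to 1.44 CPM across wild type libraries and 1.85 to 3.13 CPM in KO, without overlap (log2 fold change 1.40 with an SE of 0.447; edgeR adjusted p = 0.673). The variable segment Trbv12-2 stood at 0.201 to 0.567 CPM across wild type libraries and at 1.06, 1.03, 2.97 and 0.930 CPM in KO replicates 1 to 4. These do not overlap (log2 fold change 2.09 with an SE of 0.589, adjusted p = 0.518 by edgeR). Without KO replicate 3, the high one, the log2 fold change of Trbv12-2 was 1.5 (adjusted p = 0.609 by edgeR). Groups without overlap and higher in KO made up 2.08% of all tested genes and 2 of these 13, and none of the 13 passed the threshold. Trbc2 gave -0.30 and Trbv4 0.03. Summed over 40 Trb rows the level was 10.7, 5.59, 11.2 and 10.3 CPM in wild type replicates 1 to 4 and 14.3, 14.6, 26.7 and 11.9 CPM in KO replicates 1 to 4, so every KO library lay above every wild type library, KO replicate 3 highest. The T cell markers Cd3d, Cd3e and Cd3g were at 0.381 CPM or less in every library, while Lck stood at 54.8 to 84.5 CPM. Cd4, a coreceptor of T cells, stood at 6.29, 4.32, 11.5 and 8.32 CPM in wild type replicates 1 to 4 and at 21.9, 14.8, 13.3 and 13 CPM in KO replicates 1 to 4, without overlap (log2 fold change 1.05 with an SE of 0.314; edgeR adjusted p = 0.583). The 13 T cell markers summed to 73.1 to 104 CPM across wild type libraries and 95 to 112 CPM in KO. Of the 6 tested, 0 passed edgeR's threshold and 2, Cd4 and Trbc1, were higher at an unadjusted p under 0.05, where 2.78% of all genes were. The part of T cells in the Trb values was not tested.

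On the other flank Tcaf1, which encodes a protein that binds TRP channels, was the 1 gene of the 13 whose KO libraries all lay below wild type, a pattern of 2.11% of all genes. It stood at 4.2, 5.79, 3.21 and 5.55 CPM in wild type replicates 1 to 4 and at 2.29, 2.16, 2.67 and 2.94 CPM in KO replicates 1 to 4. The log2 fold change was -0.90 (SE 0.323) and did not pass, at an adjusted p of 0.771 by edgeR.

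Markers of LSK cells were read in both groups. The 8 LSK markers, Kit and Ly6a among them, summed to 2700 to 3340 CPM across wild type libraries and 2830 to 3050 CPM in KO. By edgeR 0 passed, with 1, Slamf1, higher at an unadjusted p under 0.05, where 2.78% of all genes were. Slamf1 and Cd48 were higher in KO without overlap, a pattern of 2.08% of all genes. Cd48 stood at 140 ± 77.9 CPM across wild type libraries and 254 ± 24 CPM in KO (SD, n = 4; adjusted p = 0.811 by edgeR). B cell markers summed to 70.0 to 116 CPM across wild type libraries and 102 to 160 CPM in KO, with 0 past edgeR's threshold. All 7 tested lay above 0, as did 6666 of all 13439 genes. Of the 7, 1, Cd79b, was higher at an unadjusted p under 0.05, where 2.78% of all genes were. Macrophage markers summed to 156 to 298 CPM across wild type libraries and 168 to 359 CPM in KO, and megakaryocyte markers to 413 to 548 CPM and 344 to 409 CPM, with 0 of either past edgeR's threshold. At an unadjusted p under 0.05, 2 macrophage markers were higher and 1 megakaryocyte marker was lower, where 2.78% and 3.28% of all genes were. DESeq2 and limma voom called 1 gene of all these lists, Vsig4, where they called 66 and 31 of all 13439 genes. By edgeR the adjusted p of Vsig4 was 0.149.

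Sva was the sole gene of 26146 with 0 counts in all wild type libraries and at least 10 in every KO library, and 0 genes had the reverse. Sva was chosen by these same counts, so its standing here is a description. With at least 1 count in every KO library there were 7 such genes, and the other 6, Spata3, Lrrc52, Sdr9c7, 1700012B07Rik, Dsg4 and Cd209a, had between 1 and 10 counts per KO library, so none came near the level of Sva. The reverse at that count, 0 in every KO library and at least 1 in every wild type library, held for 23 genes. None of the 6 genes named above beside Sva lies on chromosome 6. It holds 669 of the 13439 tested genes, so this says little about position.

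The likeness of other genes to Sva was measured as the distance between the shares of each gene's summed CPM that fall in the 8 libraries, 0 being the same pattern and 1 no overlap, over 14177 genes with at least 50 counts. Since Sva separates the groups fully, genes near it are those that separate them too, and the measure is a description. The 5 nearest were Gm10287, a noncoding RNA gene, at 0.132, Syce1 at 0.177, Vsig4 at 0.184, Rnase10 at 0.228 and Gm5176, a pseudogene, at 0.230, where the median gene was at 0.501. They lie on chromosomes 3, 7, X, 14 and 10, so none is near Sva, which for 5 genes says little about position. Gm10287 had 6 counts summed over wild type and 44 summed over KO, too few to test, as was Gm5176 with 20 and 64. Syce1, a synaptonemal complex gene, had 28, 23, 94 and 59 counts in KO replicates 1 to 4 and 2 in wild type, both in replicate 2. Vsig4, a complement receptor of tissue macrophages, had 2, 3, 7 and 19 counts in wild type replicates 1 to 4, and KO replicates 1 to 4 had 59, 50, 150 and 41. Rnase10, a ribonuclease family gene of the epididymis, had 0, 2, 10 and 2 counts in wild type and 14, 5, 29 and 24 in KO, and the groups overlap. Since a pattern like that of Sva is itself a difference between the groups, no test is given for these 5 as genes like Sva. The calls of Vsig4 above belong to it as a member of the macrophage list. KO replicate 3 had the highest CPM in 4 of them, as it had for Sva, and Gm10287 was highest in KO replicate 2, at 1.23 CPM against 1.14 in KO replicate 3.

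**Figure D4:**
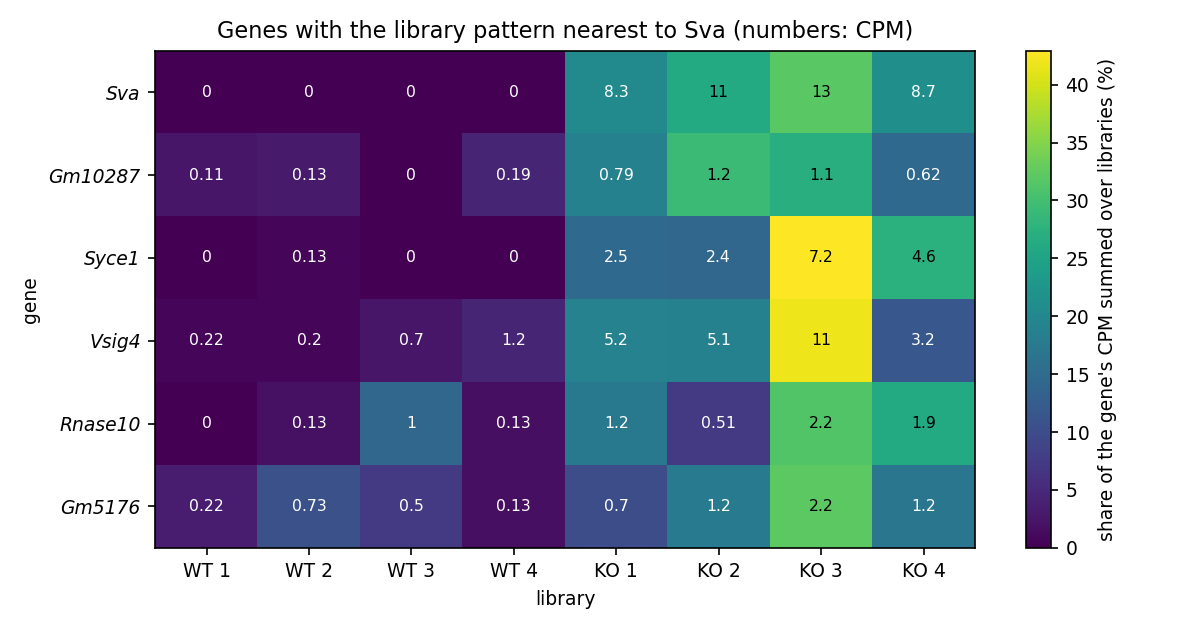
CPM (numbers) of Sva and the 5 genes with the nearest library pattern (rows) in the 8 libraries (columns), coloured by the share in percent of each gene's CPM summed over libraries. Sva is at 0 in all 4 wild type libraries and each of the other genes has reads in at least 1 of them.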

How the data were processed

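RNA of sorted LSK cells from 8 mice was sequenced as polyA RNA. The authors deposited whole-number counts per gene symbol, and the submitters' processing notes name HISAT2 and mm10. The version, counter, annotation and strand setting were not given in the sources used here, so antisense or overlapping genes may share reads. Total counts ranged from 9344779 to 15079960 per library. No pair of replicates agreed within sampling noise: chi-square over degrees of freedom was at least 6.56.

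The fit was edgeR 4.0.16 (R 4.3.3) by quasi-likelihood over all 8 libraries with TMM and filterByExpr (min.count 10, min.total.count 15). It tested 13439 genes, called at a Benjamini-Hochberg adjusted p of 0.05. CPM is scaled to TMM-adjusted size. Positions and exon lengths came from GENCODE M21 (25358 of 26146 symbols placed), upstream sequences from RefSeq GRCm38.p6, in which all 9 genes matched. Local alignments scored 2 per match, -3 per mismatch, -7 for a first and -2 for a further gap base. The script was tested on simulated counts.

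The members, gene lists and tests were chosen with earlier results of these data known. Named were all members, genes within 1 Mb past the threshold, the 8 most abundant there, the 2 nearest tested on each side, the 5 most like Sva and up to 3 of each list with the smallest p. Some list members that the rule names are left out of the text for length. Genes named outside it, the Trb sum, the genes read in KO alone and the sequence letters searched for were chosen after values or sequences were seen. Alternatives were DESeq2 1.42.0 (size factors and Wald test), limma 3.58.1 voom, library size only, other filters, a replicate block, robust shrinkage, a threshold of 0.1, a 2 Mb window and leaving out each library. The 6 libraries with Y-linked counts were added after seeing the data.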

Additional observations from a re-analysis of the deposited data

Results flagged for a closer look

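In 2 of the groups of 4 libraries 1 library lay far from the other 3, by Dixon's test at the 95% level. Chance flags about 1 in 20 groups, and 21 groups were examined. They cover Jmjd6, the tested members, Zyx, Casp2, Gstk1, Epha1, Trbc1 and Tcaf1. Trbv12-2, Trbj1-1, Trbc2 and Trbv4, also named above, were not examined in this way. Of these, Trbv12-2 stood at 2.97 CPM in KO replicate 3, where the next KO library had 1.06 CPM. Kel stood at 13.9 CPM in wild type replicate 1, where the next wild type library had 1.40 CPM. Clec5a stood at 12.5 CPM in the same library, where the next had 0.904 CPM.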

How the results depend on the processing

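The count of genes called was 8 by edgeR. It was 66 by the DESeq2 Wald test, 31 by limma voom, 4 among the 6 libraries with Y-linked counts and between 2 and 8 with single libraries left out. With a replicate block it was 3; the replicate numbers are not shown to pair the mice, since same-numbered libraries correlated at -0.192 to 0.032 and 0 of 8 libraries correlated best with their own number. The cause of these shifts was not tested. Within 1 Mb of Sva 0 genes were called under all 18 alternatives. Clec5a turned to 0.84 without wild type replicate 1, and was -0.80 with the block and -0.19 by limma voom, against -1.76. Ephb6 turned to 0.05 without KO replicate 3, against -0.31. With single libraries left out Clec5a ran from -2.43 to 0.84 and Ephb6 from -0.53 to 0.05. Kel stayed below 0, from -3.31 to -0.70, the latter by limma voom. The adjusted p ran from 0.697 to 0.999 for Clec5a, 0.792 to 0.999 for Ephb6 and 0.424 to 0.961 for Kel, which DESeq2 gave none. Kel and Clec5a were not tested under the stricter filter, nor Kel among the 6 libraries. Depth limits Sval1, Sval2, Sval3, Pip and Trpv6, which have 38 counts or fewer each.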
